A study of Mus musculus with 12 samples.

Results

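The septins are a family of GTP-binding proteins, and 10 of their genes, Sept2 to Sept11, were followed in primary cultures of mouse cerebrocortical cells given the thyroid hormone triiodothyronine (T3). The 10 genes were taken by name (newer symbols are Septin2 to Septin11) from a table of 14801 listed genes, and all 10 were listed and passed the filter on low values. Sept1, Sept12 and Sept14 were looked up as well and are not listed there. The set was proposed because Sept4 stood out in the comparison of T3 with no T3. The T3 changes of its members are therefore a description and no test is drawn from them.

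The series holds 12 RNA sequencing libraries from 6 fetuses, numbered here as mouse 1 to mouse 6 and titled wild type; a strain is not given in the sources used here. Cortices were taken on gestational day 17.5 and the dispersed cells grew for 9 days. After a further 24 h, 10 nM T3 was added to 1 culture of each fetus for 24 h (T3 group, n = 6), while its partner culture received none (no T3 group, n = 6). All 12 cultures spent those 24 h before T3 without the B27 supplement. A mouse, its dissection and its culture cannot be told apart, since each fetus gave 1 culture of each kind.

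T3 is the active form of thyroid hormone, and it binds nuclear receptors that sit on DNA and change the transcription of their target genes. Septins bind GTP and join into rod-shaped complexes, which line up end to end into filaments beneath membranes and along actin and microtubules. They serve as scaffolds and diffusion barriers in dividing cells and at the base of dendritic spines and cilia. The family is sorted by sequence into groups named after a member: SEPT2 (here Sept2, Sept4 and Sept5), SEPT3 (Sept3 and Sept9), SEPT6 (Sept6, Sept8, Sept10 and Sept11) and SEPT7 (Sept7 alone). A rod holds members of different groups, and members of a group can take each other's place in it.

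The sequences below show what the members share and where the groups part. Each is a coding window of 60 bases around the P-loop, the stretch that holds the phosphates of GTP. They were read 5′ to 3′ from the GENCODE M21 transcripts on GRCm38, and the 24 bases that encode the P-loop motif are in capitals. Every window spans 2 exons, so that its coordinates include an intron.
Sept2 (chr1:93491259-93495619, plus strand): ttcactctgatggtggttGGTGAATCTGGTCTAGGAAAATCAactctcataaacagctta
Sept4 (chr11:87583996-87584439, plus strand): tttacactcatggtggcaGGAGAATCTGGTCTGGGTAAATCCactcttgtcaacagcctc
Sept5 (chr16:18625215-18625363, minus strand): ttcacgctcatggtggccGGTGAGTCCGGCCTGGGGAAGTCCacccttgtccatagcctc
Sept3 (chr15:82279588-82283099, plus strand): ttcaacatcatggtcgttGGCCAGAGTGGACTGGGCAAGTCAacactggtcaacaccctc
Sept9 (chr11:117351602-117352189, plus strand): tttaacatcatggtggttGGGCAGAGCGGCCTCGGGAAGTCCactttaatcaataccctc
Sept6 (chrX:36966751-36975081, minus strand): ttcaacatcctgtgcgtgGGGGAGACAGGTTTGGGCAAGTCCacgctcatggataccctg
Sept8 (chr11:53532098-53534473, plus strand): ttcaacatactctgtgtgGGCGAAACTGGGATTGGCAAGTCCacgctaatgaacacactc
Sept10 (chr10:59192321-59192716, minus strand): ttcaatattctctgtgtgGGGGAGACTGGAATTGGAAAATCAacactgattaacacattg
Sept11 (chr5:93139545-93148427, plus strand): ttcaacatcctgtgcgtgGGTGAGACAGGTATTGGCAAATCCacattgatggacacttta
Sept7 (chr9:25265478-25277584, plus strand): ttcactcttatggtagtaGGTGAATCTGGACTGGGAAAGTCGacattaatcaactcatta

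Of the 24 P-loop bases 12 were identical in all 10 genes, as were 24 of the 60 bases of the window. Over the whole coding sequence, the 10 pairs within a group were 65.1% to 75.1% identical (median 70.9%). The 35 pairs from different groups were 58.2% to 67.8% identical (median 61.5%). The closest pair was Sept6 with Sept11 at 75.1%, followed by Sept4 with Sept5 at 74.2%. No stretch of 75 bases, the length of a read, was shared between any pair of the 10 genes, so an exact read belongs to 1 septin.

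The listed genes held 5272092 to 10837895 recovered reads per library, with the smallest value of a library taken as 1 read. That 1 read was worth 0.0911 to 0.186 CPM, here reads of a gene scaled to library size with TMM, which corrects for composition. Each mouse had more reads with T3 than without, 1.03 to 1.67 times as many. Transcripts of 10 neuronal markers summed to 6870 to 9182 CPM and those of astrocytes to 838 to 3275 CPM. Microglial markers summed to 8.16 CPM or less. The no T3 culture of mouse 4 stood apart. The 3 listed heart muscle markers (Myh7, Myh6 and Ttn) summed to 1213 CPM there, against 6.88 CPM or less in the 11 others. The rest of that marker list (Actc1, Tnnt2 and Tnni3) is not among the listed genes. Mural cell and fibroblast markers were highest in the same culture, at 440 CPM. As a reference for the hormone, Hr and Klf9, known T3 targets, were 7.99-fold and 2.75-fold higher with T3, in 6 of 6 mice each. These are bulk samples, in which fewer cells of a type and less RNA per cell cannot be told apart.

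Without T3, transcripts of Sept3 and Sept5 were the most abundant of the 10 and those of Sept4 the scarcest. Levels of different genes are compared as CPM per kilobase of the union of a gene's exons. Sept3, a neuronal septin of presynaptic terminals, was at 113 ± 15.0 CPM per kb (SD, n = 6), and Sept5, which binds the exocytosis protein syntaxin, at 113 ± 9.07. They were followed by Sept7, the core subunit of the rods, at 31.98 ± 3.10 and Sept11 at 27.4 ± 1.33. Sept2 stood at 21.2 ± 2.34, Sept6 at 16.4 ± 1.74, Sept9 at 15.3 ± 3.44 and Sept8 at 12.8 ± 2.27 CPM per kb. Sept10, at 2.80 ± 1.00, and Sept4, at 1.80 ± 0.672 CPM per kb, were well below the rest.

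Neighbours in this order were compared within each library by an exact two-sided sign-flip permutation test over the 6 mice. The order, and so the pairs and their direction, came from the same libraries that were tested. The test also takes the exon lengths as exact. In 5 of the 9 neighbouring pairs the order was the same in 6 of 6 mice, with an exact permutation p = 0.03125, the smallest that 6 mice allow, and 0.05625 after Benjamini-Hochberg adjustment over the 9 pairs. None of the 9 therefore passed 0.05 after adjustment. These 5 pairs were Sept5 over Sept7, Sept7 over Sept11, Sept11 over Sept2, Sept9 over Sept8 and Sept8 over Sept10. Sept3 and Sept5 were not separated (exact permutation p = 0.96875, adjusted 0.96875), nor were Sept6 and Sept9 (p = 0.53125, adjusted 0.598). Sept2 lay over Sept6, and Sept10 over Sept4, in 5 of 6 mice (exact permutation p = 0.0625 and adjusted 0.0804 for each). The level of Sept5 is uncertain, because 48.6% of its exon bases also belong to Gp1bb, a platelet glycoprotein gene on the same strand that was listed at 5.59 to 9.39 CPM. A further protein-coding gene on that strand, Gm49601, covers 56.4% of them and is not listed in the table. Of the stretches of 75 bases of Sept5, 78.7% occurred in either of these 2 genes.

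**Figure D1:**
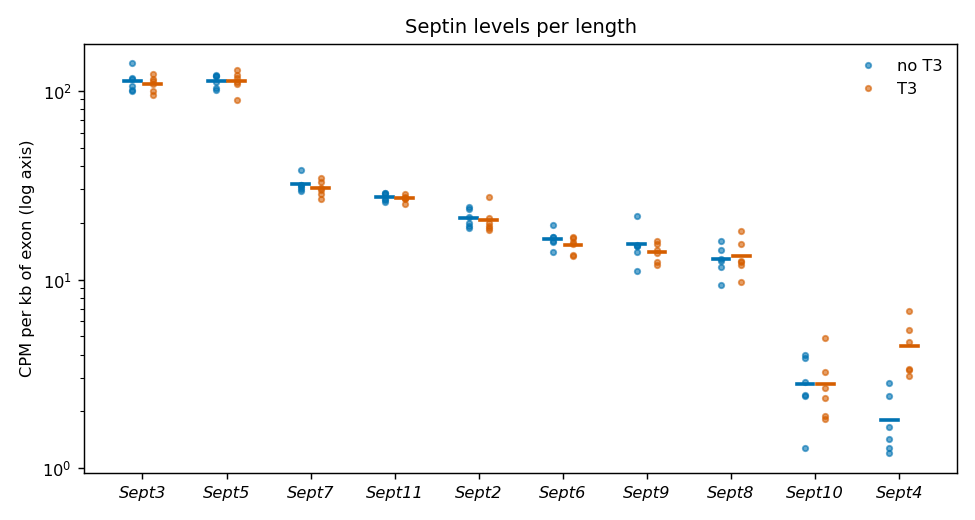
Levels of the 10 septins in CPM per kb of exon union, on a log axis, for the 6 libraries without T3 and the 6 with T3; points are libraries and bars are group means. Sept3 and Sept5 lie at about 113 CPM per kb without T3, and Sept4 moves from 1.80 without T3 to 4.44 with it.

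Sept4 was the septin that differed most between T3 and no T3. Its protein is known from sperm tails, from synuclein deposits and, as the isoform ARTS, from apoptosis. The gene (ENSMUSG00000020486) lies on the plus strand at chr11:87568903-87590539 and has 18 annotated transcripts, which the deposited values per gene do not separate. In mouse 1 to mouse 6 the Sept4 level was 10.1, 4.54, 5.08, 4.27, 8.64 and 5.91 CPM without T3. With T3 it was 24.3, 11.0, 12.0, 16.6, 19.2 and 11.9 CPM in the same order. Every T3 culture was above every culture without T3, the nearest values being 11.0 with T3 in mouse 2 and 10.1 without T3 in mouse 1. These levels rest on 23 to 211 reads per library.

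The mean Sept4 level was 6.42 ± 2.39 CPM without T3 and 15.8 ± 5.24 CPM with T3 (SD, n = 6 each). The ratio within a mouse was 2.41, 2.42, 2.36, 3.89, 2.23 and 2.01 in mouse 1 to mouse 6. The mouse with the largest ratio was mouse 4, whose no T3 culture held the heart muscle transcripts. The paired log2 change was 1.25 ± 0.117 (SE), a 2.37-fold difference, and it lay between 1.13, without mouse 4, and 1.31 when each mouse was left out in turn. T3 accounted for 68.9% of the sum of squares of Sept4 and the mouse for 27.6%. On the scale per kb, Sept4 lay above Sept10 in 1 of 6 libraries without T3 and in 6 of 6 with T3. Its share of the summed septin level per kb was 0.511% ± 0.205 without T3 and 1.28% ± 0.465 with T3 (SD, n = 6).

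**Figure D2:**
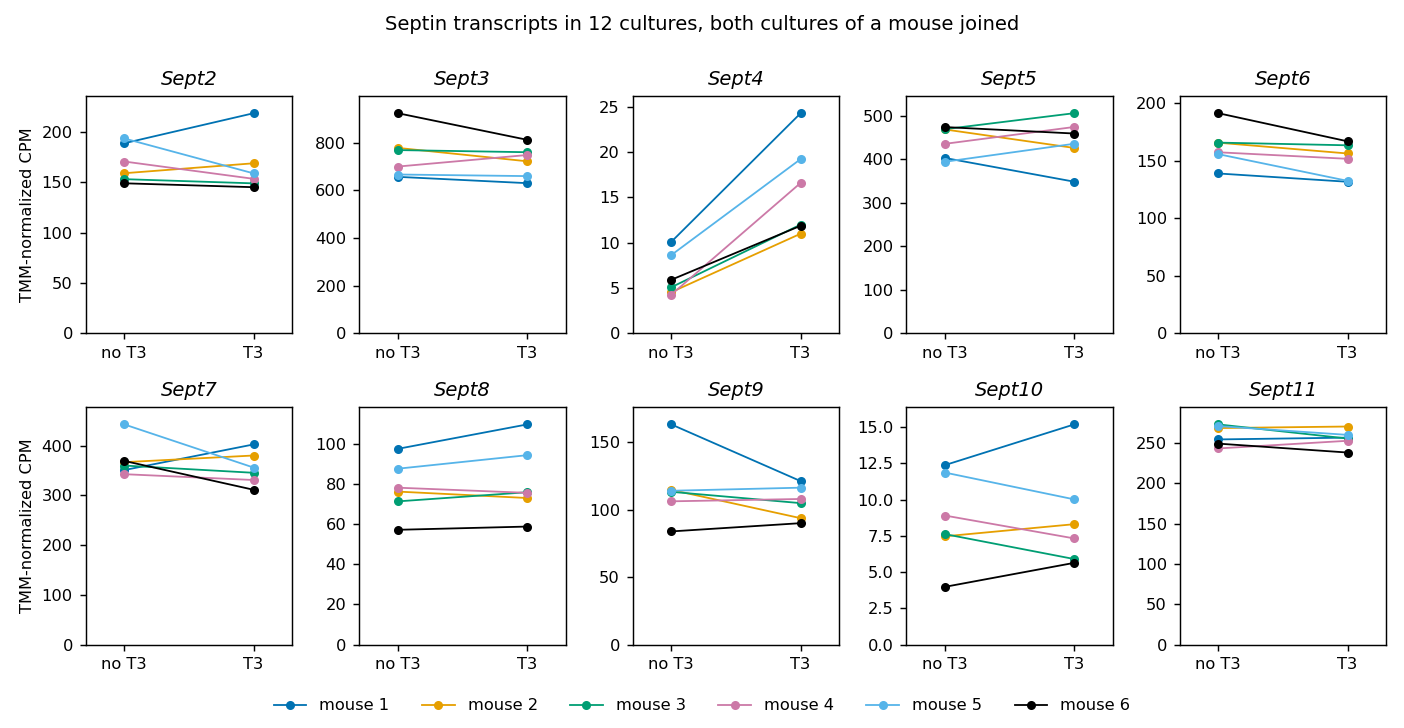
CPM of each septin in the 12 libraries, 1 panel per gene, with a line joining the 2 cultures of each mouse; axes start at 0. The Sept4 lines all go up, from 4.27 to 10.1 CPM without T3 to 11.0 to 24.3 CPM with T3, whereas the lines of the other septins overlap between the groups.

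The 2 other members of the SEPT2 group were close to level. Sept5 was at 441 ± 35.5 CPM without T3 and 442 ± 53.8 with T3 (SD, n = 6), and its log2 change was -0.0029 ± 0.053 (SE), with 3 of 6 mice higher. Sept2, a septin of the dividing cell and of cilia that also binds the glutamate transporter of astrocytes, was at 169 ± 18.7 CPM and 166 ± 27.3 CPM. Its log2 change was -0.036 ± 0.059, and 2 of 6 mice had more with T3. The coding sequence closest to Sept4, that of Sept5, thus belonged to a gene with a change near 0.

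In the SEPT3 group, Sept3 was at 749 ± 99.6 CPM without T3 and 722 ± 67.2 with T3, with a log2 change of -0.048 ± 0.046 (SE). Sept9, a subunit of the longer rods, was at 116 ± 26.0 CPM and 106 ± 12.2 CPM, with a log2 change of -0.113 ± 0.065. The mice were split for Sept9: it was lower with T3 in mouse 1 to mouse 3 and higher in mouse 4 to mouse 6. The largest difference was in mouse 1, with 163 CPM without T3 and 121 CPM with T3.

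The SEPT6 group holds the member with the most uniform small difference. Sept6 was lower with T3 in 6 of 6 mice, at 139, 166, 166, 157, 156 and 191 CPM without T3 in mouse 1 to mouse 6. With T3 the values were 132, 156, 163, 152, 132 and 167 CPM. The groups overlapped widely, and the log2 change of Sept6 was -0.110 ± 0.050 (SE), which did not pass the threshold over all genes. Sept8, a partner of the synaptic vesicle protein VAMP2, was at 78.0 ± 13.8 and 81.2 ± 18.0 CPM, higher with T3 in 4 of 6 mice. Sept10 had 8.71 ± 3.12 CPM without T3 and 8.73 ± 3.56 with T3, on 31 to 117 reads. With as few reads as Sept4, it was higher with T3 in 3 of 6 mice and its log2 change was 0.0067 ± 0.125. Sept11, found at inhibitory synapses, was the steadiest member, at 259.9 ± 12.6 CPM and 256 ± 10.5 CPM.

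Sept7, at the base of dendritic spines and in every rod, was at 372 ± 36.0 CPM without T3 and 354 ± 33.1 with T3 (SD, n = 6). Its log2 change was -0.070 ± 0.058 (SE), with higher values in 2 of 6 mice.

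In all, 1 of the 10 septins, Sept4, passed the threshold of an adjusted p of 0.05, and the same 1 had groups that did not overlap. Over the 13663 genes tested, 5.52% passed in either direction, 3.37% as higher and 2.14% as lower with T3. All T3 values lay above all values without T3 for 1.05% of those genes and below them for 0.622%. Because the set was chosen on this contrast, nothing is read from the count. The log2 changes of the 9 others ran from -0.113 to 0.049 with SEs of 0.046 to 0.125, and their groups overlapped. The median over the 10 was -0.030, beside 0.0031 over all tested genes. The summed septin level was 2363 ± 94.9 CPM without T3 and 2301 ± 48.0 CPM with T3 (SD, n = 6).

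**Figure D3:**
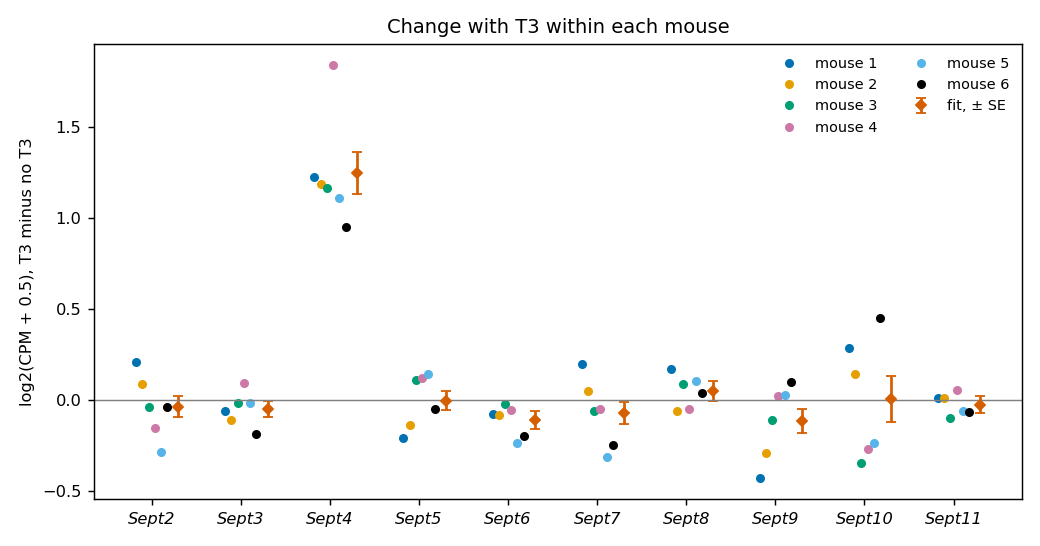
Log2 change with T3 of each septin, with points for the 6 mice and the mean with its SE from the fit over all genes. Sept4 stands at 1.25 with all 6 mice at 0.949 or above, while the other means lie between -0.113 and 0.049.

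The difference between mice is separate from the T3 contrast and was tested with the F-test of the mouse terms in the same limma fit, adjusted over all 13663 genes. Of the 10 septins 8 differed between mice, where 15.7% of all tested genes did. The 2 that did not pass were Sept7 (F = 1.72, adjusted p = 0.381) and Sept11 (F = 1.06, adjusted p = 0.605). The F was largest for Sept8 (18.2, adjusted p = 4.92e-05) and Sept10 (10.9, adjusted p = 0.00102), then Sept4 (9.17, adjusted p = 0.00238) and Sept9 (8.03, adjusted p = 0.00457). Sept3 had an adjusted p of 0.00663, Sept6 of 0.0223, Sept2 of 0.0225 and Sept5 of 0.0488 by the same limma F-test. The count fell to 3 without mouse 1 and to 4 without mouse 6; Sept8 and Sept10 passed whichever mouse was left out.

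The septins did not vary between mice in 1 direction. Sept10 ranged most, 2.71-fold between the highest and the lowest mouse after averaging the 2 cultures of each, followed by Sept4 with 2.13-fold, Sept8 with 1.78-fold and Sept9 with 1.62-fold. Sept11 ranged least, 1.11-fold. Mouse 1 was the highest of the 6 for Sept2, Sept4, Sept8, Sept9 and Sept10 and the lowest for Sept3, Sept5 and Sept6. Mouse 6 was the lowest for Sept2, Sept8, Sept9, Sept10 and Sept11 and the highest for Sept3 and Sept6. For Sept10 the 2 cultures of mouse 1 had 12.4 and 15.2 CPM, without and with T3, and those of mouse 6 had 3.98 and 5.64 CPM. For Sept3 the order was the other way, at 657 and 630 CPM in mouse 1 and 924 and 812 CPM in mouse 6.

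Astrocyte markers were high and low in the same mice. The mean log2 level of 8 astrocyte markers deviated from its mean over the mice by 0.94 in mouse 1, 0.57 in mouse 5 and -0.88 in mouse 6. All 8 differed between mice by the same F-test, beside 15.7% of all tested genes. The summed level of the 9 listed astrocyte markers (these 8 and S100b, which was not tested) was, without T3 in mouse 1 to mouse 6, 2799, 1532, 1447, 1349, 2257 and 838 CPM. With T3 it was 3275, 1735, 1549, 1636, 2500 and 1254 CPM, and 4 of the 8 tested markers (Aqp4, Gfap, Slc1a2 and Aldh1l1) passed the threshold as higher with T3, beside 3.37% of all tested genes. The neuronal list varied less, from -0.12 to 0.07 on the log2 scale. The part of the astrocyte markers in the septin values was not tested. Beside the T3 change of Sept4, the mean T3 change of the astrocyte list was 0.204, 0.099, 0.205, 0.229, 0.171 and 0.574 on the log2 scale in mouse 1 to mouse 6. The Sept4 change in the same order was 1.23, 1.19, 1.16, 1.84, 1.11 and 0.949. Some genes of other marker lists changed with T3 as well. Of 7 markers of oligodendrocyte precursors 3 passed as higher (Olig1, Olig2 and Gpr17), beside 3.37% of all tested genes. Pdgfra and Sox10 did not pass (log2 changes 0.166 and 0.256, higher in 5 of 6 mice each). Cspg4 and Nkx2-2 stayed near 0 (0.028 and -0.0041, higher in 3 of 6 mice each). The sum of all 7, 293 to 440 CPM without T3 and 396 to 498 CPM with T3, was higher in 6 of 6 mice. Gpr17, a receptor of oligodendrocyte precursors, was at 6.85 ± 1.52 CPM without T3 and 16.7 ± 3.20 with T3 (SD, n = 6), a log2 change of 1.23 ± 0.100 (SE). The sum of the listed markers of myelinating oligodendrocytes, 80.1 to 114 CPM without T3 and 85.2 to 116 CPM with T3, was also higher in 6 of 6 mice. The ranges of these sums overlapped widely. Of the 6 tested 1, Ugt8a, passed as higher. Mbp and Mog of this list went the other way without passing (log2 changes -0.110 and -0.351), each higher with T3 in 1 of 6 mice. Of the 10 neuronal markers 2, Rbfox3 and Nefl, passed as higher, while the sum of all 10 was higher in 1 of 6 mice. The part of these lists in the Sept4 change was not tested.

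**Figure D4:**
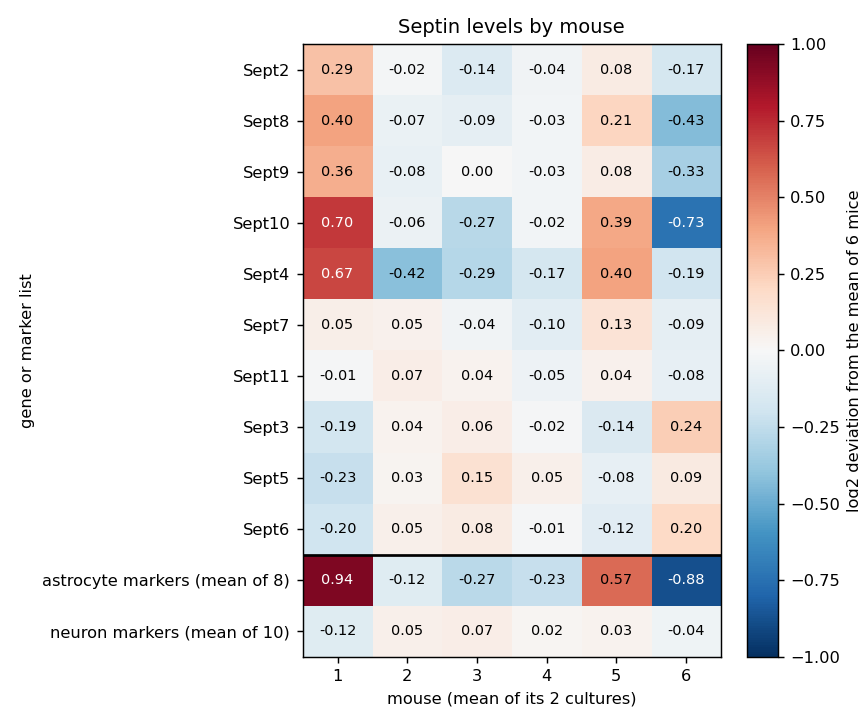
Deviation of each septin, and of the means of 8 astrocyte and 10 neuronal markers, from the mean over 6 mice on the log2 scale; each cell averages the 2 cultures of a mouse. Mouse 1 is high and mouse 6 low for Sept10 (0.70 and -0.73), and the reverse holds for Sept3 (-0.19 and 0.24).

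Likeness between septins was measured as Pearson's r of the log2 values over the 12 libraries after the mean of each T3 group was removed; the 12 libraries are pairs from 6 mice and the values are shares of a library, so r is given as a description. The most alike pair was Sept3 with Sept6 (r = 0.940) and the most opposed pair was Sept3 with Sept10 (r = -0.972). Sorted after their values were seen, Sept2, Sept4, Sept8, Sept9 and Sept10 had r of 0.572 to 0.935 among themselves over 10 pairs. Sept3, Sept5 and Sept6 had 0.725 to 0.940 over 3 pairs, and the 15 pairs across the sets had -0.972 to -0.481. Neither set follows the homology groups: Sept2 and Sept5, or Sept6 and Sept8, share a group and lie in different sets. The r with the astrocyte list was 0.969 for Sept8, 0.951 for Sept10, 0.880 for Sept9, 0.831 for Sept2 and 0.778 for Sept4. It was -0.774 for Sept5, -0.938 for Sept3 and -0.944 for Sept6. Sept7 and Sept11, which are in neither set, had 0.506 and 0.354. With the oligodendrocyte precursor list r was 0.688 for Sept9, 0.646 for Sept11, 0.629 for Sept8, 0.610 for Sept10, 0.307 for Sept2, 0.232 for Sept7 and 0.163 for Sept4. On that list it was -0.166 for Sept5, -0.583 for Sept6 and -0.665 for Sept3. With the list of myelinating oligodendrocytes r was 0.612 for Sept4, 0.547 for Sept8, 0.504 for Sept10, 0.467 for Sept7, 0.411 for Sept9 and 0.408 for Sept2. On this list Sept11 had 0.288, Sept5 -0.352, Sept6 -0.470 and Sept3 -0.544. With the neuronal list r was 0.659 for Sept5, 0.517 for Sept11, 0.348 for Sept6 and 0.270 for Sept3. The others were below 0 there, with -0.083 for Sept7, -0.235 for Sept9, -0.343 for Sept8, -0.354 for Sept10, -0.468 for Sept4 and -0.591 for Sept2.

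The r of Sept4 in that pattern changed sign without mouse 1 and mouse 5, the 2 mice highest for the astrocyte list and for Sept4. They were chosen after the data were seen, and mouse 6, the lowest for that list (-0.88), was kept. On the log2 scale, the Sept4 level deviated by 0.67 in mouse 1, by 0.40 in mouse 5 and by -0.42 to -0.17 in the mice kept. Little of its spread was thus left, so its r over the mice kept cannot decide whether Sept4 follows the astrocyte list. Without mouse 1 and mouse 5, over 8 libraries, the r of Sept4 with the astrocyte list was -0.37. Its r with Sept2, Sept8, Sept9 and Sept10 was -0.50 to -0.091, and with Sept3, Sept5 and Sept6 it was 0.263 to 0.494. Among those 4 genes r stayed above 0 in 6 of 6 pairs (0.232 to 0.854), and Sept8 (0.940), Sept10 (0.893) and Sept9 (0.890) stayed close to the astrocyte list. Sept3 and Sept6 stayed opposed to it at -0.870 and -0.883, while Sept5 moved to -0.17. The part of mouse 6 in these r was not tested.

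**Figure D5:**
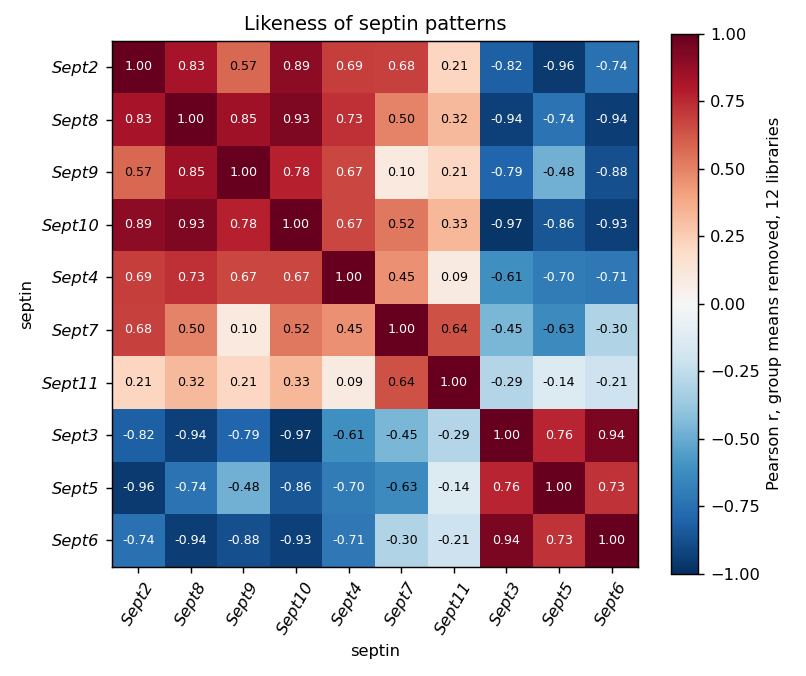
Pearson's r of log2 values between septins over 12 libraries with the mean of each T3 group removed, on a scale from -1 (blue) to 1 (red). The red upper corner holds Sept2, Sept8, Sept9, Sept10 and Sept4, and the red lower corner holds Sept3, Sept5 and Sept6, with the lowest value of -0.972 between Sept3 and Sept10.

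Over all 12 libraries with the T3 difference kept, the genes most like Sept4 among 13386 compared were Shisa6 (r = 0.956), Npnt (0.955), Pitpnc1 (0.945), Trib2 (0.939) and Nrarp (0.933). Npnt, which encodes an extracellular matrix protein, was at 28.1 ± 3.83 CPM without T3 and 49.0 ± 5.19 with T3 (SD, n = 6). With the group means removed, the 5 most alike were different genes: Ugt1a6a (r = 0.941), Cyp1b1 (0.929), Scd2 (0.921), Atraid (0.921) and Igsf11 (0.914). Ugt1a6a was low, at 2.86 ± 1.52 CPM without T3 and 2.53 ± 0.806 CPM with T3, so its r rests on few reads. It also shares exons with other Ugt1a genes, so its own level is uncertain. Scd2, a fatty acid desaturase, was at 1498 ± 155 CPM without T3 and 1650 ± 169 with T3.

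A list of 26 genes for proteins that bind septins or act with them was counted as well; 25 are listed and 24 were tested. Of the 24, 1 rose with T3 and 0 fell (limma), beside 3.37% and 2.14% of all tested genes. Both counts are near those shares and the list was chosen with earlier results of these data known, so nothing is read from them. The gene that rose was Cdc42ep1, whose product belongs to the Borg proteins, effectors of Cdc42 that bind septin filaments. It was at 8.02 ± 2.88 CPM without T3 and 13.2 ± 3.67 CPM with T3 (SD, n = 6), higher in 6 of 6 mice; the log2 change was 0.71 ± 0.108 (SE; limma adjusted p = 0.000244). In a fit without the mouse as a block its adjusted p was 0.186. The other Borg genes tested had log2 changes of 0.099 ± 0.084 (Cdc42ep2), -0.054 ± 0.068 (Cdc42ep3) and 0.026 ± 0.059 (Cdc42ep4). The median of the 24 was -0.0093. Anln, for the septin anchor anillin of dividing cells, was lower with T3 in 6 of 6 mice without passing the threshold (log2 change -0.34 ± 0.165, limma adjusted p = 0.308). Markers of proliferating cells had a lower sum with T3 in 6 of 6 mice too, and 1 of the 6, Bub1, passed. The sum fell most in mouse 4, from 191 to 55.3 CPM, whose no T3 culture held the heart muscle transcripts. It fell little in mouse 1, from 95.7 to 90.1 CPM, and in mouse 3, from 65.9 to 61.9 CPM. The part of these markers in the Anln value was not tested. Between mice 8 of the 24 partner genes differed, Cdc42ep1 among them, beside 15.7% of all tested genes.

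RefSeq (GRCm38.p6) gives 16 promoter windows for 7 of the septins, each from 250 bases before to 50 after a start, and none for Sept3, Sept5 and Sept6. They were searched on both strands for AGGTCA, the half-site that thyroid hormone receptors and other nuclear receptors recognise. It was found in 4 of the 16 windows (25%), 2 overlapping ones of Sept2, 1 of Sept4 and 1 of Sept9, beside 16.3% of all 32851 windows. A direct repeat of the half-site with 4 bases between was in 0 of the 16 and in 5 of the 32851. Because Sept4 is the member with the T3 difference, its window with the half-site is shown, on the plus strand and upstream of the start of the gene in GENCODE M21. The capitals mark the half-site, which reads on the minus strand.
Sept4 (chr11:87566439-87566738, plus strand): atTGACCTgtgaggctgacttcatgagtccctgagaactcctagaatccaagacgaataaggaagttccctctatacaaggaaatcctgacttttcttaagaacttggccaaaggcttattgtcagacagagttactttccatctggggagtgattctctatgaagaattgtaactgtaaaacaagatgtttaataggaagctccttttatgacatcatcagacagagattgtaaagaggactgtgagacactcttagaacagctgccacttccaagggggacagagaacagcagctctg

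A match of these letters is a description and no site of binding. The 3 other Sept4 windows, and all windows of Sept7, Sept8, Sept10 and Sept11, held no match.

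Beyond Sept5, other overlaps bear on the counting. A further Ensembl gene also named Sept2 covers 41.8% of the exon bases of Sept2 and is not listed in the table. Antisense or pseudogene overlaps covered 3.12% of Sept6 and 2.11% of Sept7. For Sept4, 1.26% of the exon bases were shared with Gm11492, and no stretch of 75 bases of Sept4 occurred in another annotated gene.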

How the data were processed

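RNA sequencing measured transcripts per gene in 12 libraries from 6 mice. Per the labels' protocols, libraries were made from 500 ng of RNA with a TruSeq RNA kit that does not mark strand and read as single reads of 75 bases on a Genome Analyzer IIx. The submitters' processing notes list the build GRCm38 and the tools TopHat, Bowtie, HTSeq, edgeR, CASAVA and FastQC, without versions. What was deposited is a signal, counts per gene scaled by TMM per the file headers, and are read here as CPM. Within 0.01 reads, 100% of the values were whole multiples of the smallest value of their library. That value was taken as 1 read, which gave the reads of the listed genes per library.

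Genes were kept by filterByExpr of edgeR 4.0.16 on the recovered reads (13663 kept, 1138 removed). Log2(value + 0.5) was fitted in limma 3.58.1 (R 4.3.3) with the mouse as a block, a mean-variance trend and robust variances; this scale understates the fold changes of low genes. P-values were two-sided, Benjamini-Hochberg adjusted over all tested genes, with a threshold of 0.05. The pairing comes from the series' design, by which a fetus gave both cultures; partner libraries correlated at 0.237 to 0.638 in their deviations from the group means. Other fits (edgeR, DESeq2 1.42.0, voom, other scalings, each mouse left out) were alternatives. Levels per kb used log2(value per kb + 0.01). Each mouse is 1 biological sample, and read numbers cover counting error only.

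The members, the partner list and the marker lists were chosen with earlier results of these data known. Named genes are the 10 septins, partner genes past the threshold, the 5 genes most like Sept4 by each of 2 measures, Hr and Klf9. Cdc42ep2, Cdc42ep3, Cdc42ep4, Anln and some genes of the marker lists were added after their values were seen. Gene models are GENCODE M21; symbols were found for 14648 of the 14801 identifiers.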

Additional observations from a re-analysis of the deposited data

Results flagged for a closer look

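In 20 groups of 6 libraries (10 septins, with and without T3) the highest or lowest library was compared with its nearest neighbour. In 2 of them its gap, as a share of the group's range, was above Dixon's 95% critical value, where chance gives about 1 in 20. Sept2 with T3 was at 218.7 CPM in mouse 1, the next highest library being at 169 CPM. Sept7 without T3 was at 442.6 CPM in mouse 5, the next highest being at 369 CPM.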

How the results depend on the processing

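Sept4 kept its direction and its side of the threshold under all 15 alternatives, the fit without the replicate block included. As the set was chosen on this contrast, that describes the settings and is no test of the change. Without the block, 178 genes passed across the table (125 higher, 53 lower) in place of 754. With a mouse left out, 459 to 854 passed; the 459, without mouse 3, were 304 higher and 155 lower. Between mice 1166 genes differed without mouse 1 and 1345 without mouse 6, of a range of 1166 to 2323 with a mouse left out, in place of 2141. The septins that differed between mice numbered 3 to 8 with a mouse left out. Calls were lost, with these adjusted p from the limma F-test, without mouse 1 for Sept2 (0.285), Sept4 (0.0766), Sept5 (0.355), Sept6 (0.134) and Sept9 (0.0530); without mouse 3 for Sept2 (0.0522) and Sept5 (0.139); and without mouse 6 for Sept2 (0.0551), Sept3 (0.102), Sept5 (0.0589) and Sept6 (0.127). Log2 changes near 0 changed sign: Sept5 to 0.00091 with library totals, Sept10 to -0.0025 with voom, -0.0017 with edgeR and -0.0022 with DESeq2. With a mouse left out, Sept2 ran from -0.086 to 0.013, Sept5 from -0.032 to 0.038 and Sept10 from -0.083 to 0.077. Among the septins whose sign held with each mouse left out, the change moved by over 1.5 times for Sept7 (-0.021 without mouse 5, -0.035 without mouse 6 and -0.124 without mouse 1), Sept9 (-0.050 without mouse 1), Sept3 (-0.021 without mouse 6 and -0.077 without mouse 4), Sept8 (0.025 without mouse 1) and Sept11 (-0.0093 without mouse 3, -0.015 without mouse 6 and -0.039 without mouse 4). The block changed no other septin call. The causes were not tested. The order of levels was the same in every alternative but the one without mouse 6, where Sept5 preceded Sept3 and Sept9 preceded Sept6. The low reads of Sept4 and Sept10 limit their precision. Likeness without mouse 1 and mouse 5 was chosen after seeing the data.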
